A study of Homo sapiens with 8 samples.

Results

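The transcripts of 10 genes of the Notch pathway were followed here, namely the receptors NOTCH1, NOTCH2 and NOTCH3, the ligands JAG1, JAG2, DLL1 and DLL3, and the effectors HES1, HEY1 and HEY2. They were chosen by gene symbol and make up 10 of the 60659 genes counted. Libraries of total RNA without ribosomal RNA were made from SK-N-SH, a human neuroblastoma cell line, in 4 groups of 2 libraries that the labels call biological replicates without naming separate cultures, so that p-values measure the spread between these libraries only. All 8 libraries came from cells moved to a low-serum differentiation medium with 10 µM all-trans retinoic acid (ATRA), which induces neuronal differentiation, for 24 h. The overexpression experiment compared cells carrying FLAG-tagged ZMYND8, a chromatin reader protein, with parental cells, and both groups received doxycycline (Dox). The knockdown experiment compared cells labelled ZMYND8 KD with cells labelled Control KD (KD control below), neither of them labelled with Dox.

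The overexpressing cells had been transduced with a Dox-inducible lentiviral vector (pInducer20) and selected with G418, so that ZMYND8 level, transduction and selection cannot be told apart against parental cells. How the knockdown in these SK-N-SH cells was made, and whether the lines were clones or pools, is not given in the sources used here. Each library held between 38316523 and 56256979 counts on genes. ZMYND8 itself, in TPM (counts scaled by exon length and library), stood at 34.6 and 34.6 in the parental libraries, 2140 and 2315 under overexpression, 24.8 and 26.9 in KD control, and 12.7 and 12.3 in knockdown. The targeted gene thus followed the labels in every library. Summed over 9 adrenergic neuroblastoma genes, the level was 459 to 477 TPM in parental, 1451 to 1640 in overexpression, 795 to 894 in KD control and 604 to 659 in knockdown libraries, with TH at 5 counts or fewer. Summed over 10 mesenchymal genes, it was 5376 to 5800, 2492 to 2493, 2187 to 2247 and 2502 to 2683 TPM in the same order. Defining genes of blood cells summed to at most 0.447 TPM, those of endothelium to at most 2.23 and those of Schwann cells to at most 10.2, with SOX10 at 1 count or none. Of the 8 adrenergic genes tested, 8 rose under overexpression and 4 fell in knockdown, and none went the other way. Of the 10 mesenchymal genes 9 fell and 1 rose (TWIST1) under overexpression, and 6 rose and 2 fell (PRRX1 and SNAI2) in knockdown. Over all genes tested, 26.6% rose and 27.8% fell under overexpression, and 13.1% rose and 10.6% fell in knockdown. The adrenergic and mesenchymal sums moved with both comparisons below, and their part in the Notch results was not tested. In bulk RNA, fewer cells of a type and less RNA per cell cannot be told apart.

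Notch receptors are single-pass membrane proteins that are activated by ligands of the Jagged and Delta-like families on a neighbouring cell. Ligand binding leads to cleavage by ADAM proteases and γ-secretase, and the freed intracellular domain joins the DNA-binding protein RBPJ and a Mastermind coactivator to switch on genes such as HES1 and HEY1, whose products repress proneural genes. In neural tissue the pathway is known for keeping progenitors undifferentiated, and in neuroblastoma it is known for its ties to the mesenchymal cell state.

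The promoters of the effectors are shown because the intracellular domain acts there through RBPJ, whose core motif is TGGGAA. Promoter sequences from RefSeq (GRCh38.p14) matched 7 of the 10 members, all but DLL1, DLL3 and HEY1. In the 250 bases before the start of the gene in its RefSeq entry, both strands were searched for TGGGAA, which reads as TTCCCA when on the other strand. The N-box searched was CACNAG. The E-box searched was CACGTG, which shares its first 3 letters with the N-box. Capitals mark the RBPJ core. HES1 (chr3:194135898-194136147, plus strand) held 2 matches, with first bases at −84 and −70 from the start, and HEY2 (chr6:125749382-125749631, plus strand) held 1 on the other strand at −213. HES4 (chr1:1000098-1000347, minus strand), an effector outside the 10 members, held 1 at −76. NRARP, HES6 and HES7, the other genes of the effector list outside the members that were searched, held none. Whether each gene of that list answers to Notch in these cells was not tested. The start differs between annotations. The windows of HEY2, NOTCH2 and HES6 lie inside the gene span of the annotation used for counting, those of JAG2 and HES4 in part.
HES1: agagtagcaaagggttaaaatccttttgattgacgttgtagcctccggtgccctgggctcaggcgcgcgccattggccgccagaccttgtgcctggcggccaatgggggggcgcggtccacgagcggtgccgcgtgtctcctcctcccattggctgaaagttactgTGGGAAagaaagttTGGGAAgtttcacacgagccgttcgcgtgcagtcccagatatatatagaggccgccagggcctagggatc
HEY2: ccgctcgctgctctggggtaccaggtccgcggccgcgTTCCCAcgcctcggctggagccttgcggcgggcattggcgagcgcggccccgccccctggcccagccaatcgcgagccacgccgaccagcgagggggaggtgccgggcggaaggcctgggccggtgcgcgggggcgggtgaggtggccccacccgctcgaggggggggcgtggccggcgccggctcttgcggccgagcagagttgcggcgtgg
HES4: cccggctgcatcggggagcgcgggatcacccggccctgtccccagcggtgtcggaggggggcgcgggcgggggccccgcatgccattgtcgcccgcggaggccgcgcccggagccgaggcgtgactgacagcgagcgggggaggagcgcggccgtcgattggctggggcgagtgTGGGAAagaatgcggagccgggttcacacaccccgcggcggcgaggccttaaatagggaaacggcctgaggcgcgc

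The RBPJ core was absent from these windows of NOTCH1, NOTCH2, NOTCH3, JAG1 and JAG2, and it occurred in 20.8% of 35116 RefSeq promoters of the same length. HES1 also held 3 N-box matches and NOTCH3 held 1, a motif found in 32.0% of promoters and in no other of the 7 member windows, and no member held the E-box, found in 6.34%. NOTCH3 and JAG1 are shown as the receptor and the ligand whose levels moved in both experiments (below). Their windows (NOTCH3, chr19:15200996-15201245, and JAG1, chr20:10674000-10674249, both minus strand) carry no capitals, since no RBPJ core was found in them.
NOTCH3: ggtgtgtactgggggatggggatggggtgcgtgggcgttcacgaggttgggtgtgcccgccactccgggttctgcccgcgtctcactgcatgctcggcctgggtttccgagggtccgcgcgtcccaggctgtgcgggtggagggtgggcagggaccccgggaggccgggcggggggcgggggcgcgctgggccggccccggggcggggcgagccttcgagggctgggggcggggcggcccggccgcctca
JAG1: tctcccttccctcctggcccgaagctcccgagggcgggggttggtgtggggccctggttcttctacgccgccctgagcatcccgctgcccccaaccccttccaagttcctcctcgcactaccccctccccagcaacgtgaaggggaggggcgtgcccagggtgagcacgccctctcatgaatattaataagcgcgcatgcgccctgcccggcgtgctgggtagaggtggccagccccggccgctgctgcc

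NOTCH2 was the most abundant receptor in every library, and JAG1 the most abundant ligand in all but the overexpression libraries, where DLL3 was as high or higher. The levels below are in TPM, which allows comparison between genes, whereas the tests used counts scaled by TMM, a factor computed over all genes. DLL1 had 0 counts in all 8 libraries, which allows at most 0.0450 to 0.0758 TPM by the upper limit of 3 counts, counting error only. An alternate contig of the reference repeats 91.9% of its exonic 31-base sequences, and reads with several matches may not have been counted, so this 0 cannot be read as absence of the transcript. HEY2 had 0 and 0 counts in parental, 6 and 6 in overexpression, 0 and 0 in KD control and 0 and 3 in knockdown libraries. DLL1 and HEY2 were too low to be tested in either comparison.

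**Figure D1:**
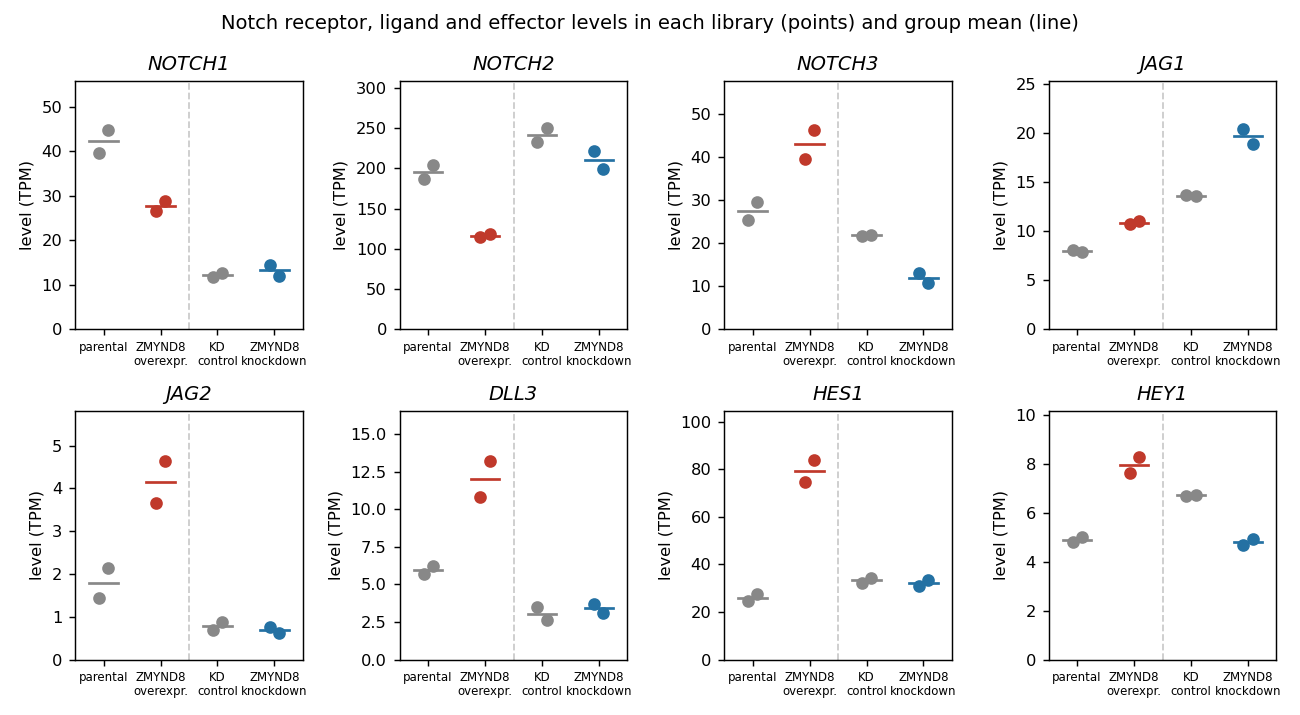
Level in TPM (vertical axes, each from 0) of the 8 members with enough counts, in each library (points) and as the mean of 2 libraries (lines), with the overexpression experiment left and the knockdown experiment right of the dashed line. HES1 stood at 74.5 and 84.0 TPM under overexpression and between 24.6 and 34.5 in the other 6 libraries.

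ZMYND8 overexpression came with lower NOTCH1 and NOTCH2 and with higher NOTCH3, higher ligands and higher HES1 and HEY1. A gene is said to have changed at a Benjamini-Hochberg adjusted p below 0.05 over all genes tested (edgeR's quasi-likelihood test, two-sided) with a mean normalised count above 20. By this rule all 8 tested members changed, 6 higher and 2 lower, against a background of 54.4% of 20835 genes, 26.6% higher and 27.8% lower. With a change of at least 2-fold as well, 2 members remained, HES1 and JAG2, both higher, against 18.6% of all genes (11.8% higher and 6.84% lower). The backgrounds here and below include genes with a mean of 20 or less, which could not count as changed. All tested members lay above that mean, and a background of genes of like level was not computed. The median absolute log2 fold change was 0.81 over the 8 members and 0.44 over all genes tested.

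Of the receptors, NOTCH2 (ENSG00000134250, chromosome 1, 119911553-120100779, minus strand, GRCh38) stood at 187 and 204 TPM in parental and 114 and 119 in overexpression libraries. The groups did not overlap, with means of 195 ± 11.6 and 116 ± 2.97 TPM (SD, n = 2). NOTCH2 fell 1.85-fold, with a log2 fold change of −0.89 ± 0.050 (SE, adjusted p = 9.80e-08). Of its exonic 31-base sequences, 11.0% also occur in the human-specific NOTCH2NL copies or in NBPF26, so that part of its reads could have been lost or exchanged in counting.

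NOTCH1 (ENSG00000148400, chromosome 9, 136494433-136546048, minus strand) stood at 39.7 and 44.8 TPM in parental and 26.6 and 28.7 in overexpression libraries. Both overexpression libraries were below both parental ones. Its log2 fold change was −0.76 ± 0.055 (SE, adjusted p = 7.32e-07), a 1.69-fold fall. NOTCH3 (ENSG00000074181, chromosome 19, 15159038-15200995, minus strand), a receptor best known from vascular smooth muscle and pericytes, went the other way. It stood at 25.3 and 29.5 TPM in parental and 39.7 and 46.3 in overexpression libraries, without overlap. NOTCH3 rose 1.42-fold (log2 0.50 ± 0.066, SE, adjusted p = 7.45e-05). After correction for gene length and GC content, its log2 fold change was 0.16 and no longer passed (adjusted p = 0.0544).

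All 3 measurable ligands rose under overexpression. JAG1 (ENSG00000101384, chromosome 20, 10637684-10673999, minus strand) stood at 8.06 and 7.92 TPM in parental and 10.8 and 11.0 in overexpression libraries. The rise was the smallest among the members but exceeded the spread of the libraries (log2 0.30 ± 0.070, SE, adjusted p = 0.00326). A gene annotated on the other strand covers 3.29% of its exonic bases. JAG2 (ENSG00000184916, chromosome 14, 105140982-105168824, minus strand) stood at 1.43 and 2.15 TPM in parental and 3.67 and 4.63 in overexpression libraries. It rose 2.08-fold (log2 1.06 ± 0.181, SE, adjusted p = 0.000483), and its log2 fold change lay between 0.71 and 1.36 over 12 alternatives, with the 2-fold mark missed without parental replicate 1, without overexpression replicate 2 and with the length and GC correction (0.71), alone or beside a replicate block. Another annotated gene on the same strand covers 7.33% of its exonic bases.

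DLL3 (ENSG00000090932, chromosome 19, 39498895-39508481, plus strand) differs from the other ligands in that its product is known to act mainly inside the cell, as an inhibitor of Notch signalling, and is a surface target in neuroendocrine tumours. It stood at 5.67 and 6.20 TPM in parental and 10.8 and 13.2 in overexpression libraries. The groups were well separated, and DLL3 rose 1.83-fold (log2 0.87 ± 0.127, SE, adjusted p = 0.000155). The size depended on the processing, since its log2 fold change lay between 0.40 and 0.97 over 12 alternatives. It passed in each of them. Leaving out each library in turn gave 0.78 to 0.97.

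HES1 (ENSG00000114315, chromosome 3, 194136148-194138732, plus strand), the transcriptional repressor whose promoter is printed above with 2 RBPJ cores, showed the largest change among the members. It stood at 24.6 and 27.4 TPM in parental and 74.5 and 84.0 in overexpression libraries. Means were 26.0 ± 1.97 and 79.3 ± 6.69 TPM (SD, n = 2), with the lowest overexpression library far above the highest parental one. HES1 rose 2.75-fold by TMM-scaled counts (log2 1.46 ± 0.069, SE, adjusted p = 2.32e-08). The size of this change exceeded that of 82.0% of all genes tested. Its log2 fold change stayed between 1.35 and 1.54 over 12 alternatives.

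HEY1 (ENSG00000164683, chromosome 8, 79762371-79767857, minus strand), a related repressor, stood at 4.80 and 5.00 TPM in parental and 7.63 and 8.27 in overexpression libraries. It rose 1.47-fold (log2 0.55 ± 0.099, SE, adjusted p = 0.000656), again with no overlap of the groups. HEY2, with its 6 and 6 counts against 0 and 0, was at least 1.58-fold higher over the group when set against a floor of 3 counts, and no test was made.

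ZMYND8 knockdown came with a shorter list, lower NOTCH3, higher JAG1 and lower HEY1. Of the 8 tested members 3 changed, 1 higher and 2 lower, against a background of 23.8% of 19789 genes (13.1% higher and 10.6% lower). None changed by at least 2-fold, against 1.96% of all genes. The median absolute log2 fold change was 0.24 over the members and 0.20 over all genes tested.

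NOTCH3 stood at 21.8 and 21.9 TPM in KD control and 13.0 and 10.8 in knockdown libraries. The groups did not overlap, at 21.8 ± 0.0607 and 11.9 ± 1.57 TPM (SD, n = 2). NOTCH3 fell 1.70-fold (log2 −0.77 ± 0.075, SE, adjusted p = 5.35e-05), a size above that of 92.8% of genes tested. NOTCH1 stood at 11.9 and 12.7 TPM in KD control against 14.5 and 12.0 in knockdown, overlapping in TPM but not in TMM-scaled counts. Its log2 fold change of 0.22 ± 0.076 (SE) did not pass (adjusted p = 0.0595), although it did without knockdown replicate 2, at 0.34 (adjusted p = 0.000252). NOTCH2, at 233 and 250 TPM in KD control and 222 and 200 in knockdown, lay lower in both knockdown libraries but did not pass (log2 −0.08 ± 0.058, SE, adjusted p = 0.341).

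JAG1 stood at 13.7 and 13.6 TPM in KD control and 20.4 and 18.9 in knockdown libraries. Both knockdown libraries lay above every other library of the series. JAG1 rose 1.56-fold (log2 0.64 ± 0.059, SE, adjusted p = 3.51e-05), more than 89.5% of genes tested by size. JAG2 stood at 0.680 and 0.885 TPM in KD control against 0.772 and 0.627 in knockdown, and the groups overlapped (log2 −0.05 ± 0.208, SE, adjusted p = 0.901). DLL3 stood at 3.51 and 2.60 TPM against 3.71 and 3.13, again with overlap (log2 0.27 ± 0.197, SE, adjusted p = 0.368). With 70 to 165 counts per library behind them, these ligands had the widest errors among the tested members.

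HES1 stood at 32.4 and 34.5 TPM in KD control and 30.7 and 33.6 in knockdown libraries, with the ranges overlapping. Its log2 fold change was 0.06 ± 0.078 (SE, adjusted p = 0.641), and no change was detected. HEY1 stood at 6.70 and 6.74 TPM in KD control and 4.68 and 4.92 in knockdown libraries, and did not overlap. HEY1 fell 1.29-fold (log2 −0.37 ± 0.098, SE, adjusted p = 0.0194). The fall did not pass without KD control replicate 1 (adjusted p = 0.0952), without KD control replicate 2 (0.0661) or without knockdown replicate 1 (0.0999).

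**Figure D2:**
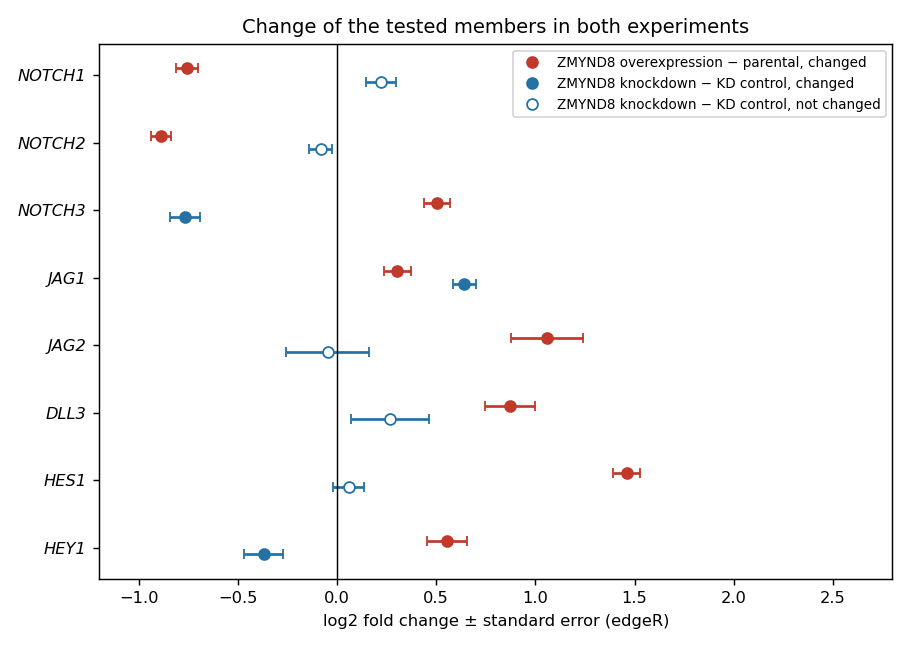
Log2 fold change (horizontal axis) of the 8 tested members with the standard error from edgeR as bars, for overexpression against parental (red) and knockdown against KD control (blue). Filled points changed and open points did not pass. NOTCH3 and HEY1 lie on opposite sides of 0 in the 2 experiments, and JAG1 lies above 0 in both.

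Set beside each other, 3 of the 8 members tested in both experiments changed in both, against 18.7% of the 18504 genes tested in both. Each against its own control, NOTCH3 and HEY1 were higher in overexpression and lower in knockdown cells, whereas JAG1 was higher in both. Over all genes, 11.5% changed in opposite directions and 7.16% in the same direction. In a model over all 8 libraries the difference of the effects, overexpression minus knockdown, was tested directly and passed for 7 of 8 members, 4 higher and 3 lower, against a background of 44.6% of 22619 genes (21.4% higher and 23.2% lower). For 3 members, NOTCH3, JAG2 and HES1, the difference was at least 2-fold, all higher, against 18.8% of all genes (11.1% higher and 7.66% lower). The differences on the log2 scale were 1.40 ± 0.106 for HES1 (SE, adjusted p = 4.02e-08) and 1.27 ± 0.107 for NOTCH3 (adjusted p = 1.31e-07). For NOTCH1 it was −0.98 ± 0.096 (adjusted p = 6.40e-07), and for NOTCH2 −0.81 ± 0.077 (adjusted p = 4.50e-07). The JAG1 difference was −0.34 ± 0.088 (adjusted p = 0.00478), a larger rise in knockdown than in overexpression. DLL3, at 0.60 ± 0.241 (SE), did not pass (adjusted p = 0.0531), but passed without KD control replicate 2 (0.00816).

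Over the 4 groups, the order of the mean levels differed between members. NOTCH3 ran from overexpression over parental and KD control to knockdown with no overlap between neighbours. JAG1 ran from knockdown over KD control and overexpression to parental, also with no overlap. NOTCH1 was highest in parental, then overexpression, with knockdown and KD control overlapping below. NOTCH2 was highest in KD control and lowest in overexpression, with knockdown and parental overlapping in between. HES1, JAG2, DLL3 and HEY1 were each highest in overexpression. Below it, KD control and knockdown overlapped for HES1, JAG2 and DLL3, and parental and knockdown overlapped for HEY1.

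The 2 control groups also stood apart. Mean NOTCH1 was 3.44 times as high in parental as in KD control cells, JAG2 2.28 times, DLL3 1.94 times and NOTCH3 1.25 times. In the other direction, JAG1 was 1.71 times as high in KD control as in parental cells, HEY1 1.37 times, HES1 1.28 times and NOTCH2 1.23 times. These groups belong to separate experiments that also differ in Dox, so that the origin of these gaps cannot be told apart, and no test was made.

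The composition of the receptor pool followed the single genes. Summed over NOTCH1, NOTCH2 and NOTCH3, receptor transcripts were 265 ± 18.1 TPM in parental, 187 ± 9.16 in overexpression, 275 ± 13.1 in KD control and 236 ± 19.0 in knockdown cells (SD, n = 2). NOTCH2 made up 73.7% ± 0.675 of the parental sum and 62.3% ± 1.46 under overexpression, while the NOTCH3 part went from 10.3% ± 0.400 to 22.9% ± 1.38. In the knockdown experiment NOTCH2 made up 87.6% ± 0.344 in KD control and 89.4% ± 0.563 in knockdown cells, and NOTCH3 7.94% ± 0.355 and 5.03% ± 0.262. NOTCH1 held 15.9% and 14.8% in the first experiment and 4.46% and 5.61% in the second. No receptor share overlapped between the groups of an experiment, and shares were not tested. The shares within a library are tied to each other, since together they make up the whole sum. With 2 libraries per group, groups can also separate by chance, and how often shares of other genes do so was not computed. The lack of overlap therefore does not show by itself that the composition changed.

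Ligand transcripts summed to 15.7 ± 0.784 TPM in parental and 27.1 ± 2.56 in overexpression cells, and to 17.5 ± 0.588 in KD control and 23.8 ± 1.60 in knockdown cells (SD, n = 2). The sum was thus higher in the altered cells of both experiments, but its makeup differed. JAG1 made up 50.9% ± 3.17 of the sum in parental and 40.3% ± 3.15 in overexpression cells, and DLL3 37.8% ± 0.491 and 44.4% ± 2.06. In the knockdown experiment JAG1 made up 78.1% ± 2.09 and 82.7% ± 0.993, and DLL3 17.4% ± 3.07 and 14.3% ± 0.757.

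**Figure D3:**
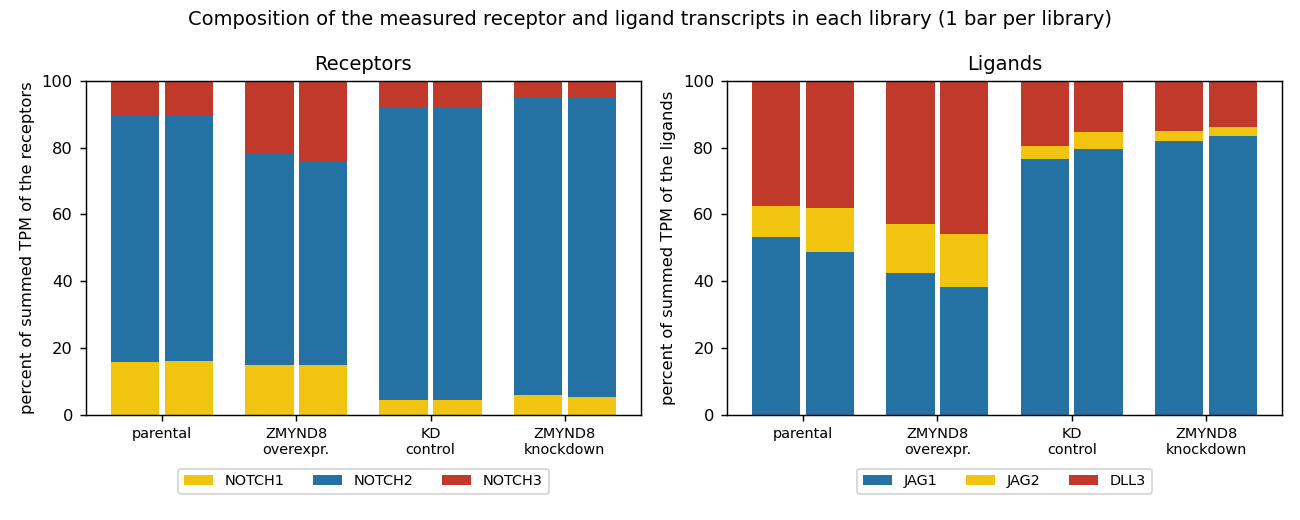
Percent of the summed TPM of the receptors (left) and of the measured ligands (right) taken by each gene, with 1 bar per library and 2 libraries per group. The NOTCH3 part was 22.0% and 23.9% in the overexpression libraries and between 4.84% and 10.6% in the other 6.

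The genes whose profile over the 8 libraries was most like that of HES1, the member with the largest change in overexpression, were looked up among 15079 genes by the root mean square difference of centred log2 CPM (counts scaled to library size). They were NAP1L3 at 0.0477, RGS9 at 0.0719 and CCDC184 at 0.0736. NAP1L3 had log2 fold changes of 1.42 in overexpression and 0.04 in knockdown. For NOTCH3, the member with the largest change in knockdown, they were TM7SF2, a sterol reductase, at 0.0837, PPFIA4, a liprin, at 0.0913 and the gene ENSG00000269896 at 0.108. TM7SF2 had log2 fold changes of 0.48 and −0.70 in the same 2 comparisons.

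Of 63 further pathway genes 54 could be tested under overexpression, and 38 of them changed, 19 higher and 19 lower, against the 54.4% of all genes. At least 2-fold changes were found for 16, with 13 higher and 3 lower, against 18.6% of all genes. Genes with few parental counts, among them DLK1, NEURL1 and HES4, passed the filter only through overexpression counts and could count only as higher. The median log2 fold change of the tested pathway genes was −0.01, beside 0.03 over all genes. In knockdown 48 could be tested and 16 changed, 8 in each direction, against 23.8% of all genes, and 2 of these changed by at least 2-fold, both higher, against 1.96% of all genes (1.36% higher and 0.596% lower).

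Among other receptors and ligands, 3 of 5 tested genes rose under overexpression and none fell, against 26.6% of all genes higher and 27.8% lower. Contactin 1 (CNTN1), an adhesion molecule described as a noncanonical Notch ligand, had 91 and 91 counts in parental and 3118 and 2880 in overexpression libraries. Its log2 fold change was 5.00 ± 0.105 (SE, adjusted p = 8.38e-11). In KD control libraries CNTN1 had 784 and 963 counts, with a mean TPM 7.35 times the parental one. DLK1, a ligand-like membrane protein without the receptor-binding Delta domain, had 4 and 1 counts in parental and 156 and 79 in overexpression libraries, a ratio of 45.3 with a 95% counting interval of 19.1 to 141. The fitted log2 fold change of DLK1 was 6.75 without parental replicate 1 and 4.62 without parental replicate 2. DLK1 had 4 and 5 counts in KD control. It passed the filter of the overexpression comparison only through its overexpression counts, so among the 3 it could count only as higher. The other gene that rose was DNER, at log2 2.09 ± 0.092 (SE, adjusted p = 1.39e-08), which was named after its value was seen because it completes the 3. In knockdown none of the 3 tested genes of this list passed with edgeR or DESeq2, and none had an unadjusted p below 0.05. NOTCH4 had 0 counts in every library, with 91.3% of its 31-base sequences repeated on an alternate contig.

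All 4 genes of ligand endocytosis, which signal-sending cells need to pull on the receptor, rose under overexpression, against 26.6% of all genes. In knockdown none passed with edgeR or DESeq2, and 1 had an unadjusted p below 0.05, although NEURL1 passed as lower without knockdown replicate 2 (log2 −0.89, adjusted p = 0.0152). Under overexpression most of them moved little, since the median log2 fold change was 0.35. NEURL1, a ubiquitin ligase for ligands, had 3 and 12 counts in parental against 324 and 307 in overexpression libraries (log2 5.34 ± 0.299, SE, adjusted p = 9.15e-08). The parental counts were low, and its log2 fold change was 4.78 without parental replicate 1 and 6.48 without parental replicate 2. NEURL1 had 76 and 82 counts in KD control. It passed the filter of the overexpression comparison only through its overexpression counts, so among the 4 it could count only as higher.

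Of the 5 genes that glycosylate the receptors, 4 fell under overexpression and none rose, against 27.8% of all genes lower and 26.6% higher. In knockdown 3 rose and none fell, against 13.1% of all genes higher and 10.6% lower. LFNG, the Fringe enzyme that shifts receptors from Jagged towards Delta ligands, had 461 and 551 counts in parental and 326 and 184 in overexpression libraries, and 238 and 241 in KD control and 453 and 402 in knockdown libraries. It fell by 1.05 on the log2 scale in overexpression (SE 0.154, adjusted p = 0.000168) and rose by 0.88 in knockdown (SE 0.122, adjusted p = 0.000486). MFNG, another Fringe enzyme, had 14 and 15 counts in KD control and 36 and 26 in knockdown libraries (log2 1.14 ± 0.349, SE, adjusted p = 0.0374). This rise did not pass without KD control replicate 1 (adjusted p = 0.144), without KD control replicate 2 (0.158), without knockdown replicate 1 (0.244) or with no filter on low counts (0.0767).

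Of 9 genes of receptor cleavage, 6 fell and none rose under overexpression, against 27.8% of all genes lower and 26.6% higher. All 6 fell by less than 2-fold, among them the γ-secretase subunit NCSTN and the convertase FURIN, both named after their values were seen. NCSTN had a log2 fold change of −0.89 ± 0.052 (SE, adjusted p = 1.23e-07) and FURIN of −0.79 ± 0.065 (adjusted p = 1.90e-06). In knockdown 2 rose and 3 fell, against 13.1% of all genes higher and 10.6% lower. APH1B, another γ-secretase subunit, had 761 and 801 counts in KD control and 1474 and 1576 in knockdown libraries, a clear separation. It rose 2.02-fold (log2 1.01 ± 0.073, SE, adjusted p = 7.43e-06), and fell under overexpression (log2 −0.30 ± 0.060, adjusted p = 0.00138).

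RBPJ, the DNA-binding partner of all 3 receptors, did not pass in either experiment, at log2 0.07 ± 0.048 (SE, adjusted p = 0.232) and 0.12 ± 0.048 (adjusted p = 0.0994). Of the 5 genes of nuclear activation 1 rose and 2 fell under overexpression, against 26.6% of all genes higher and 27.8% lower. In knockdown 2 fell, against 10.6% of all genes. The coactivator MAML2 had 4948 and 5758 counts in parental and 1051 and 755 in overexpression libraries. It fell 6.15-fold (log2 −2.62 ± 0.068, SE, adjusted p = 3.18e-10), and MAML3, named after its value was seen, rose at log2 0.97 ± 0.053 (adjusted p = 7.39e-08). In knockdown the MAML2 value was −0.18 ± 0.050 (adjusted p = 0.0282), which did not pass in 3 of the 4 fits that leave out a library, without KD control replicate 1 (0.0667), without KD control replicate 2 (0.156) and without knockdown replicate 2 (0.150).

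Among 10 corepression genes 2 rose and 5 fell under overexpression, against 26.6% of all genes higher and 27.8% lower. The rising genes were TLE2, with 30 and 52 against 567 and 565 counts (log2 3.76 ± 0.184, SE, adjusted p = 3.15e-08), and TLE3, with 3817 and 4706 against 11282 and 9107 counts (log2 1.21 ± 0.048, adjusted p = 6.10e-09). Both encode Groucho-type corepressors that bind HES proteins. TLE1 and TLE4 of the same family, named after their values were seen, fell. Their log2 fold changes were −0.28 ± 0.052 (SE, adjusted p = 0.000938) and −0.29 ± 0.054 (adjusted p = 0.000809). TLE3 fell in knockdown (log2 −0.39 ± 0.052, SE, adjusted p = 0.000352). TLE1 rose there (log2 0.41 ± 0.069, SE, adjusted p = 0.00179), TLE4 did not pass (adjusted p = 0.232) and TLE2 was too low to be tested. L3MBTL3, an RBPJ corepressor, fell in both experiments, at log2 −1.09 ± 0.057 (SE, adjusted p = 5.44e-08) and −0.31 ± 0.064 (adjusted p = 0.00586).

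Of 8 negative regulators 4 rose and 2 fell under overexpression, against 26.6% of all genes higher and 27.8% lower. In knockdown none passed with edgeR or DESeq2, and 2 had an unadjusted p below 0.05. The Deltex ubiquitin ligase DTX1 had 56 and 51 counts in parental and 1093 and 1016 in overexpression libraries (log2 4.25 ± 0.144, SE, adjusted p = 2.00e-09). DTX4 had 31 and 54 against 312 and 277 counts (log2 2.76 ± 0.192, adjusted p = 5.15e-07). In KD control libraries DTX1 had 451 and 486 counts, with a mean TPM 6.68 times the parental one, and DTX4 had 36 and 39. NUMB, the endocytic adaptor that antagonises Notch, did not pass (log2 −0.01 ± 0.049, adjusted p = 0.832).

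Of the other HES genes, HEYL and NRARP, listed as effectors outside the 10 members, 4 of 5 tested genes rose by at least 2-fold under overexpression. None fell, and over all genes 11.8% rose that far. HES4 and the remaining tested gene, HES2, named after its value was seen (33 and 24 counts against 0 and 0), passed the filter only through overexpression counts. They could count only as higher, so the 4 of 5 cannot be set against that share. HES4, whose promoter is printed above, had 2 and 1 counts in parental and 95 and 111 in overexpression libraries, a ratio of 66.1 with a 95% counting interval of 22.3 to 323. The fitted log2 fold change of HES4 was 6.60 without parental replicate 1 and 5.43 without parental replicate 2. In KD control HES4 had 107 and 120 counts, however, and in knockdown libraries 85 and 67, so that its overexpression level overlapped that of KD control in TPM. HES7 had 71 and 96 against 498 and 445 counts (log2 2.46 ± 0.137, SE, adjusted p = 9.02e-08). The other genes that rose, HES6 (log2 1.18 ± 0.113, SE) and NRARP, a feedback inhibitor of the Notch complex (log2 2.21 ± 0.183, SE), were named after their values were seen because they complete the 4. In knockdown NRARP was the gene of this list that rose (log2 0.62 ± 0.181, SE, adjusted p = 0.0315), and none fell, whereas with DESeq2 none of the 4 tested genes passed. HES4 did not pass but was past the threshold, lower, without knockdown replicate 1 (log2 −0.71, adjusted p = 0.0276). HES5 had 1 count in all 8 libraries together, with 95.5% of its 31-base sequences repeated on an alternate contig.

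**Figure D4:**
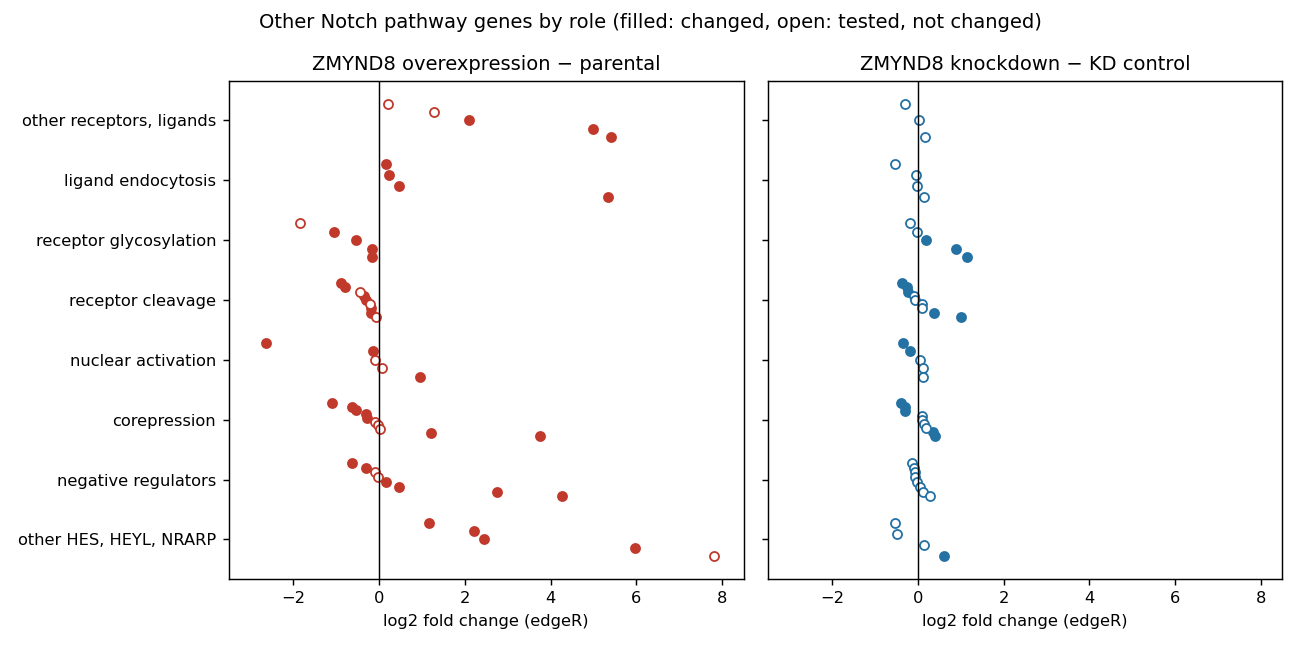
Log2 fold change (horizontal axes) of tested pathway genes outside the 10 members, in 8 roles (rows), for overexpression against parental (left) and knockdown against KD control (right), with filled points for genes that changed. Under overexpression the points reach from −2.62 (MAML2) to 5.96 (HES4) among genes that changed, and in knockdown the largest is 1.14 (MFNG).

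Of the 48 pathway genes tested in both experiments 11 changed in both, 6 of them in opposite directions and 5 in the same direction, against the 18.7%, 11.5% and 7.16% of all genes given above. Among the 6 opposite genes, the largest differences between the effects were found for LFNG, at −1.94 ± 0.210 on the log2 scale (SE, adjusted p = 1.97e-06), TLE3 at 1.60 ± 0.070 (adjusted p = 9.53e-11) and APH1B at −1.32 ± 0.094 (adjusted p = 1.91e-08). Against their own controls, LFNG and APH1B were lower in overexpression and higher in knockdown cells, and TLE3 was the reverse. Across the experiments, mean APH1B was 24.4 TPM in parental, 21.9 in overexpression, 16.3 in knockdown and 8.70 in KD control cells. In the same order, LFNG was 11.4, 6.01, 7.12 and 4.17 TPM, and TLE3 26.5, 67.8, 38.9 and 55.3. A relation to the amount of ZMYND8 was not tested.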

How the data were processed

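RNA-seq was done on 8 SK-N-SH libraries, 2 in each of 4 groups taken from the treatment labels. The authors deposited raw counts per gene with the summed exon length. Per the study's methods, Trim_Galore trimmed the reads, Hisat2 aligned them to GRCh38, and featureCounts counted them on GENCODE release 28. No strand setting is stated, so overlapping genes are uncertain. Some identifiers in the table belong to later releases as far as known, and GENCODE release 44, with 60462 of 60659 identifiers, gave symbols, overlaps and shared 31-base sequences. Of 60662 lines, 3 lines of 1 split gene were left out.

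After filterByExpr and TMM scaling, the quasi-likelihood test of edgeR 4.0.16 (with limma 3.58.1 in R 4.3.3) was run two-sided, each experiment in its own fit of 4 libraries and the difference of effects in 1 model over 8. P-values were adjusted by the Benjamini-Hochberg method over all genes tested. Changed means an adjusted p below 0.05 and a mean normalised count above 20, and the 2-fold threshold is an absolute log2 fold change of 1. DESeq2 1.42.0, other scalings, no filter, a minimum mean of 100, all 8 libraries, a replicate block, a length and GC correction (loess, span 0.5) and leaving out each library were the alternatives. TPM was computed from counts and exon length. Counting intervals are exact 95% intervals and cover counting error only.

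In data simulated for each comparison, 200 genes were changed. Of these edgeR recovered 200 in overexpression (20483 genes tested), 200 in knockdown (19731) and 196 for the difference (21481). In the same order, 9, 10 and 15 unchanged genes were called. The changed genes had a median absolute log2 fold change of 1.01, 1.00 and 0.998. Recovery of smaller changes, such as 0.30 for JAG1 in overexpression, or of genes with lower counts or a wider spread was not tested. Nor was a share of changed genes as large as the 54.4% found in overexpression. Without the filter on low counts, 152 of the 200 were recovered in knockdown, so a gene lost there may have been missed. The list of proneural genes, which the pathway totals include, is not reported on its own here. Members and gene lists were chosen with earlier results of these data known. Of each pathway list, up to 2 genes with the largest rise and up to 2 with the largest fall past the 2-fold threshold were named in each comparison, beside the 3 oppositely changed genes with the largest difference and genes marked as named after their values were seen.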

Additional observations from a re-analysis of the deposited data

Results flagged for a closer look

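The overexpression effect and the knockdown effect differed for 7 of 8 members, against 44.6% of all genes, by edgeR's quasi-likelihood test in the model over 8 libraries. They also differed for 11 of the 12 pathway genes that were named by the rule for size and tested in both experiments. These 12 genes were picked for large or opposite changes in the same comparisons, so their number passing cannot be set against that background. MFNG, the remaining gene, had an adjusted p of 0.00146 in this test but a mean normalised count of 15.2, below the limit of 20. The differences, overexpression minus knockdown on the log2 scale, were −0.98 for NOTCH1, −0.81 for NOTCH2 and 1.27 for NOTCH3 among receptors. They were −0.34 for JAG1 and 1.10 for JAG2 among ligands, and 1.40 for HES1 and 0.92 for HEY1 among effectors. Among these pathway genes the positive differences were 6.49 for HES4, 5.88 for NEURL1, 4.97 for CNTN1, 4.13 for DTX1, 2.70 for DTX4, 2.30 for HES7 and 1.60 for TLE3. The negative ones were −2.45 for MAML2, −1.94 for LFNG, −1.32 for APH1B and −0.79 for L3MBTL3. DLK1 and TLE2 also passed, but their counts of 5 or fewer in the KD control and knockdown libraries were too low for a knockdown test. The TLE2 difference of 5.46 (adjusted p = 0.00653) was 1.47 without KD control replicate 2 and did not pass there (0.875), and the DLK1 difference (adjusted p = 4.31e-05) has no size to give, since both knockdown libraries were at 0. Leaving out parental replicate 2 moved the NEURL1 difference to 7.02, and leaving out parental replicate 1 the HES4 difference to 7.14. Since the KD control and parental cells differed in level for several of these genes, the effects start from different baselines, and the part of this in the differences was not tested. With 2 libraries per group, no test for outlying libraries could be made.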

How the results depend on the processing

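With 2 libraries per group, small changes of low genes such as JAG2 and DLL3 may be missed. No value of a member or named gene reversed a called direction under the alternatives run. All 8 tested members passed under overexpression in each alternative except with the length and GC correction, where NOTCH3 did not. With that correction, and with it beside the replicate block, 1 member was higher and 2 were lower past the 2-fold threshold (NOTCH1 and NOTCH2 crossed it, JAG2 fell below), and leaving out a library gave 1 to 2 members, higher in each case. In knockdown the members that changed numbered 2 to 4 without a library, 1 to 2 higher and 1 to 2 lower. Without the filter on low counts 1 member was lower, since HEY1 did not pass (adjusted p = 0.0641). With all 8 libraries in the fit 2 were higher, as NOTCH1 passed (0.0353). In the difference of effects, members past the 2-fold threshold on the lower side numbered 1 with DESeq2, with RLE scaling and without the filter, and 0 to 1 without a library. Without the filter 5 pathway genes rose in knockdown, and past the 2-fold threshold 1 pathway gene, higher, was left with DESeq2, without the filter and without each library in turn (lowest and highest both 1). As shares of counts rather than TPM, NOTCH2 made up 84.6%, 76.9%, 93.5% and 94.3% of receptors in parental, overexpression, KD control and knockdown cells, and JAG1 73.4%, 63.6%, 90.7% and 93.2% of ligands.

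Replicate numbers did not pair the libraries, since deviations of same-numbered libraries correlated at 0.0097 and −0.0111. With a replicate block 2 members were higher in knockdown (NOTCH1, adjusted p = 0.0205), and with the block and the length and GC correction 5 members changed, 2 of them higher, with NOTCH2 lower at −0.16 (adjusted p = 0.0449). Under the block the DLL3 difference passed (0.0240), as it did with upper quartile scaling (0.0341).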
